A study of Homo sapiens with 4 samples.

Results

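The 2 strands of the miR-486 precursor were set directly against each other in A549 cells, a human lung adenocarcinoma line. The comparison used the array of the miR-486-3p transfected cells and the array of the miR-486-5p transfected cells, which are 2 of the 4 arrays of the study. A gene was included when at least 1 of its probes was well above background on at least 1 of these strand arrays, which kept 16561 of the 22439 genes matched on the array. The other 2 arrays are mock cells, labelled as given the transfection reagent only, and they served only to show the direction of each strand and the noise. None of the 4 arrays is labelled as cells given a control RNA, so every difference from mock compares RNA with reagent against reagent alone. Each strand was put into A549 cells with the lipid reagent Lipofectamine RNAiMAX in RPMI culture medium, and total RNA was labelled with Cy3 on a single-colour Agilent array of 58201 probes. The labels give neither a dose nor a time after transfection, and they do not say whether the mock arrays came from separate cultures, so the spread between them may be technical. Every value below is a level, the log2 signal minus the 75th percentile of its array, or a difference between such levels.

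A miRNA precursor is cut into a duplex, and either strand can be loaded into the silencing complex, where it lowers mRNAs that pair with its seed. The guide strand and the passenger strand carry different seeds and so read different sets of mRNAs. In miR-486 the 5p strand is the guide and the 3p strand the passenger. The guide strand is known for its abundance in muscle and red blood cells, and both strands are studied as tumour suppressors in lung cancer. Genes that do not pair with the seed can also shift after transfection, so an array records direct and secondary changes together.

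Promoter sequence is shown for some interferon-stimulated genes, some mitosis genes and SREBF2. The strand differences of these 2 groups and of SREBF2 are described below, but not those of every gene shown. The motifs are those known for the interferon response, the cell cycle and sterol regulation. The sequences are from RefSeq on GRCh38.p14, run 5' to 3' on the strand of the gene, lie within the 250 bases before the start of the gene, and were searched on both strands. The interferon-stimulated response element core, GAAANNGAAA, was found in 14 of the 27 interferon-stimulated promoters with an entry (51.9%) and in 3.07% of all 27305 promoters. Capitals mark the matches.
ISG15, chr1:1013380-1013409, + strand: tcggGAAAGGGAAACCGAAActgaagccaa
IFIT1, chr10:89392510-89392539, + strand: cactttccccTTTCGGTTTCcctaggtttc
IFIT3, chr10:89327865-89327894, + strand: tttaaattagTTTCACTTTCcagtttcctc
IFI6, chr1:27672266-27672295, - strand: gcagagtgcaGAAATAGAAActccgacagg
In ISG15 the capitals cover a pair of overlapping matches, and in IFIT1 and IFIT3 the match reads on the opposite strand.

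The cell cycle homology region, TTTGAA, was found in 11 of the 24 promoters of mitosis genes with an entry (45.8%) and in 13.6% of all promoters.
CDK1, chr10:60778158-60778187, + strand: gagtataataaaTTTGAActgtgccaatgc
KIF11, chr10:92593090-92593119, + strand: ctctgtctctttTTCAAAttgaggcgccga
CCNB2, chr15:59105105-59105134, + strand: agcgacgcggtaTTTGAAtcctggaacaag
MKI67, chr10:128126435-128126464, - strand: tcttcgttttcgTTTGAAttgggcgggcgc
In KIF11 the match reads on the opposite strand. The sterol regulatory element core, TCACNCCAC, was found in 0.875% of all promoters. It was found in 0 of 15 promoters of cholesterol synthesis genes and in 1 of 10 promoters of sterol uptake and regulation genes.
SREBF2, chr22:41832961-41832990, + strand: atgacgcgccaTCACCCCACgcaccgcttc
The letters of the 3 motifs do not contain each other. The windows shown were picked by strand difference, which is positive where the passenger strand gave the higher level. The interferon-stimulated genes shown had differences from 1.38 to 2.45, the mitosis genes from -2.34 to -2.03, and SREBF2 had -1.26. They are therefore not an unselected sample of the genes with a match. A match is a description of these windows, and whether it goes with the expression of a gene was not tested.

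The strand arrays were far apart compared with the mock arrays. Over the 14421 genes well above background on all 4 arrays, mock 2 minus mock 1 had an SD of 0.157, and 10 genes (0.0693%) differed by more than 1 on the log2 scale. The difference between the strands had an SD of 0.980, and 25.3% of these genes passed that limit. Most of this distance lay on the 3p side. The miR-486-3p array differed from mock with an SD of 1.01 and the miR-486-5p array with an SD of 0.525, and the 3p array was farther from mock than the 5p array for 11726 of the 16561 genes (70.8%).

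Of the 16561 genes, 2323 (14.0%) were above 1 and 2148 (13.0%) were below -1 for miR-486-3p minus miR-486-5p. The order turned when probes had to be well above background on all 4 arrays, to 1779 above and 2033 below among 14960 genes. With 1 array per strand there is no replicate check of either strand. limma was therefore fitted on 27555 genes and unnamed probes over all 4 arrays, with the spread taken from the mock arrays alone (1 residual degree of freedom) and assumed for the strand arrays. With Benjamini-Hochberg adjustment at 0.05 it called 3910 genes higher after miR-486-3p (23.6%) and 4000 lower (24.2%). It called 92.3% of the genes above 1 and 98.5% of those below -1. The smallest adjusted p of the limma fit was 0.0126, which many genes share. In the same fit miR-486-5p minus mock gave 0 calls in either direction, with a smallest adjusted p of 0.0525 and 10227 features at an unadjusted p under 0.05, whereas miR-486-3p minus mock gave 7771 features higher and 6300 lower. Differences of the 5p array from mock are therefore given as values without a call, and "called" below refers to the limma contrast between the strands unless mock is named.

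The direction of the strand difference moved with the level of the gene. In the dimmest of 5 equal groups by mock level the median difference was 0.45, with 27.3% of genes above 1 and 4.62% below -1. A gene dim in mock could pass the filter through 1 strand array where it was high, so this skew is in part set by the filter. For some probe, 1114 genes were not well above background on the 5p array and 725 were not on the 3p array. In the brightest group the median was -0.26, with 4.05% above 1 and 20.3% below -1. Median scaling in place of the 75th percentile shifted the median strand difference by -0.30 and gave 1552 genes above 1 against 3313 below -1. The share of higher genes among those past either limit was then 31.9% instead of 52.0%, and among limma calls 32.3% instead of 49.4%. With normexp background correction the share was 40.5% among genes past either limit and 53.1% among limma calls. The part that signal level, the filter and scaling play in single genes was not tested.

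**Figure D1:**
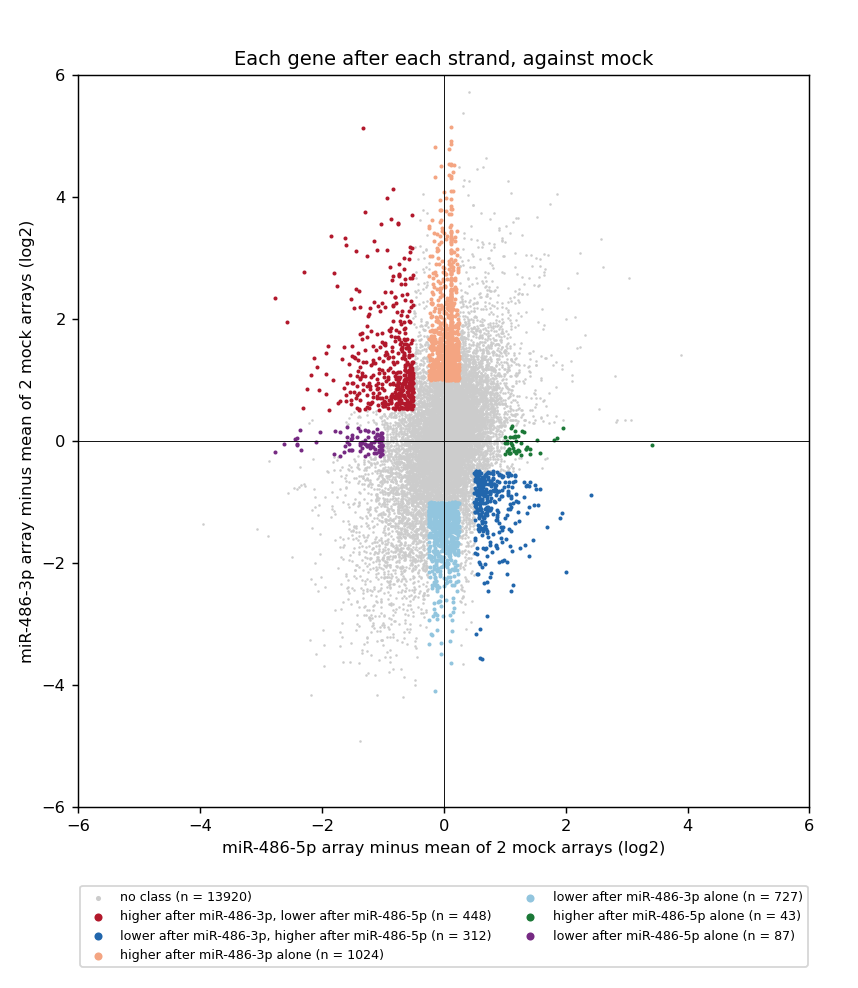
Each point is 1 of the 16561 genes; the horizontal axis gives the miR-486-5p array minus the mock mean and the vertical axis the miR-486-3p array minus the same mean, both in log2 units, with values below the limit of detection raised to it. Colours mark the 448 and 312 genes on opposite sides of mock and the 1024, 727, 43 and 87 genes past the limit after 1 strand alone; the cloud is taller than it is wide.

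Genes that the strands placed on opposite sides of mock were counted at 0.5 on the log2 scale for each strand. In 448 genes (2.71%) the 3p array was above mock and the 5p array below it, and in 312 genes (1.88%) the reverse was found. The first set held 406 protein-coding genes, had a median mock level of -1.41 and a median strand difference of 1.96. The second set held 260 protein-coding genes and 47 lncRNA genes, had a median mock level of 0.12 and a median strand difference of -1.73. The values that define these sets are the same ones that set the differences, so the medians are a description. Both strand differences use the same mock arrays. When each strand was given a mock array of its own, between 394 and 406 of the 448 genes and 281 or 282 of the 312 genes stayed in their set. With median scaling the sets numbered 351 and 425, so that the second became the larger, and 291 and 248 of the original genes stayed. With normexp they numbered 99 and 122, of which 97 and 117 were original genes.

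The genes farthest apart in the first set, among those well above background on all 4 arrays, were DHRS2, PAQR6, TMEM63C, PRAM1, CYP1A1 and SHC2. DHRS2, a short-chain dehydrogenase/reductase, had levels of -2.70 after miR-486-5p, 2.52 after miR-486-3p and -0.86 and -0.83 in mock. The mock arrays lay between the strands, and the strand difference of 5.22 (SE 0.102) was a 37.3-fold higher signal after miR-486-3p. PAQR6, a membrane progestin receptor, had levels of -1.30, 3.78, 1.02 and 0.97 in the same order, a 33.8-fold difference. CYP1A1, the aryl hydrocarbon receptor target that oxidises polycyclic aromatic hydrocarbons, had levels of -3.98, 0.97, -2.33 and -2.40. Its signal was 30.9-fold higher after miR-486-3p, with 5p 1.62 below mock and 3p 3.33 above it. The differences of TMEM63C, PRAM1 and SHC2 were 5.06, 4.98 and 4.92. limma's adjusted p lay between 0.0126 and 0.0132 for these 6 genes, and the 3p array differed from mock by limma in each of them.

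Of the 564 list genes in use, 14 lay in this first set (2.48%), a share near the 2.71% of all genes. TNFAIP2, a gene induced by tumour necrosis factor, had levels of -2.55 after miR-486-5p, 2.25 after miR-486-3p and -0.90 and -1.0 in mock, a 27.9-fold difference. ABCC3, an organic anion efflux pump, differed by 4.59, although its 2 probes gave 2.54 and 6.65. SPARC, a secreted matrix glycoprotein, was 0.65 below mock after miR-486-5p and 3.00 above it after miR-486-3p, and TGFBI, a matrix protein induced by TGF-beta, was 1.08 below and 0.95 above. TGFBR1, the type I receptor of TGF-beta, was 0.56 below mock after miR-486-5p and 0.56 above it after miR-486-3p. The kinase PIM1 was 1.74 below mock after miR-486-5p and 0.63 above it after miR-486-3p. Both cholesterol exporters of the list were also here: ABCA1 differed by 1.62 between the strands and ABCG1 by at least 2.99-fold, since ABCG1 was not well above background on the 5p array.

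**Figure D2:**
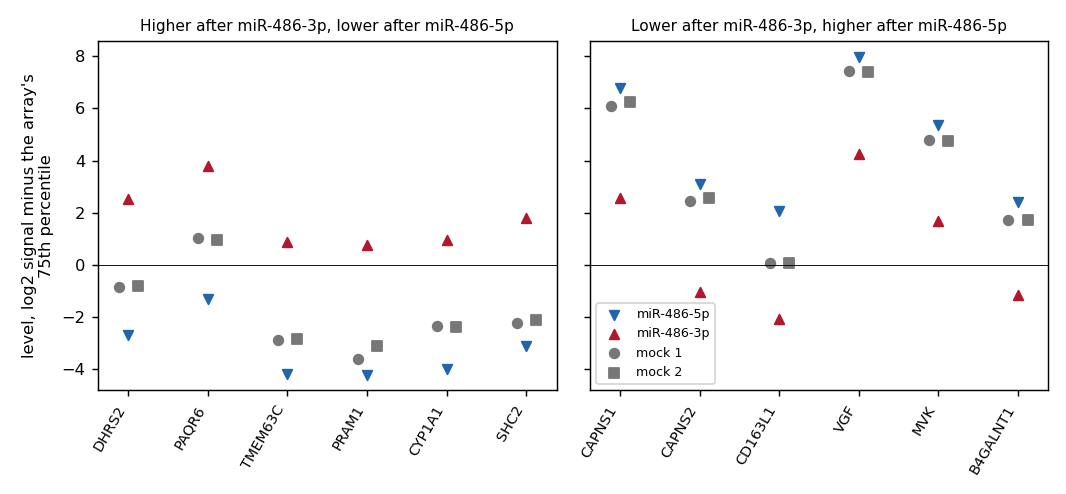
Levels (log2 signal minus the 75th percentile of the array, vertical axis) of the 6 genes farthest apart in each orientation, with 1 symbol per array: miR-486-5p, miR-486-3p, mock 1 and mock 2. In the left panel miR-486-3p lies above both mock arrays and miR-486-5p below them, as for DHRS2 at 2.52 and -2.70, and in the right panel the order is turned, as for CAPNS1 at 2.58 and 6.78.

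In the reverse orientation the genes farthest apart were CAPNS1, CAPNS2, CD163L1, VGF, MVK and B4GALNT1. CAPNS1, the regulatory subunit of the calpain proteases, had levels of 6.78 after miR-486-5p, 2.58 after miR-486-3p and 6.10 and 6.23 in mock. Most of its 18.4-fold difference lay on the 3p side, 3.58 below mock, with the 5p array 0.62 above it. CAPNS2 differed by -4.16, but it is a copy of CAPNS1 close in sequence, so their probes may share signal and its value is uncertain. CD163L1, a scavenger receptor, had levels of 2.08, -2.08, 0.07 and 0.07, and here the strands were nearly equally far from mock, at 2.01 and -2.15. VGF, a secreted neuropeptide precursor, differed by -3.70, and B4GALNT1, a ganglioside synthase, by -3.58. limma's adjusted p was 0.0126 for these genes.

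MVK, mevalonate kinase, was the only enzyme of cholesterol synthesis among these 6 genes, but the pathway as a whole separated the strands. All 20 enzymes of the list were well above background on all 4 arrays, and 18 were below -1 for miR-486-3p minus miR-486-5p, against 13.0% of all genes. limma called 18 lower (90%, against 24.2% of all genes) and 1 higher (5%, against 23.6%). The median strand difference was -1.78, against 0.03 over all genes; the median against mock was -1.51 for the 3p array and 0.34 for the 5p array. MVK had levels of 5.36 after miR-486-5p, 1.68 after miR-486-3p and 4.77 and 4.74 in mock. HMGCS1, which makes HMG-CoA, had levels of 4.48, 1.94, 3.36 and 3.13. In both the 5p array was the highest and the 3p array the lowest of the 4 arrays.

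FDPS, which makes farnesyl pyrophosphate, differed by -2.69 between the strands, and ACAT2, the acetyl-CoA thiolase at the head of the pathway, by -2.79. DHCR7, which catalyses a late reduction, differed by -2.43. Counted at 0.5 on both sides of mock, 6 enzymes were in the reverse set, among them MVK, HMGCS1, TM7SF2 and HSD17B7. A further 5, CYP51A1, EBP, FDFT1, IDI1 and MVD, stood more than 1 below mock after miR-486-3p and within 0.25 of it after miR-486-5p. LSS, lanosterol synthase, was also lower on the 3p array, at -0.48, but with no call (limma adjusted p = 0.0609). PMVK, phosphomevalonate kinase, was the exception in direction, 1.05 higher after miR-486-3p.

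**Figure D3:**
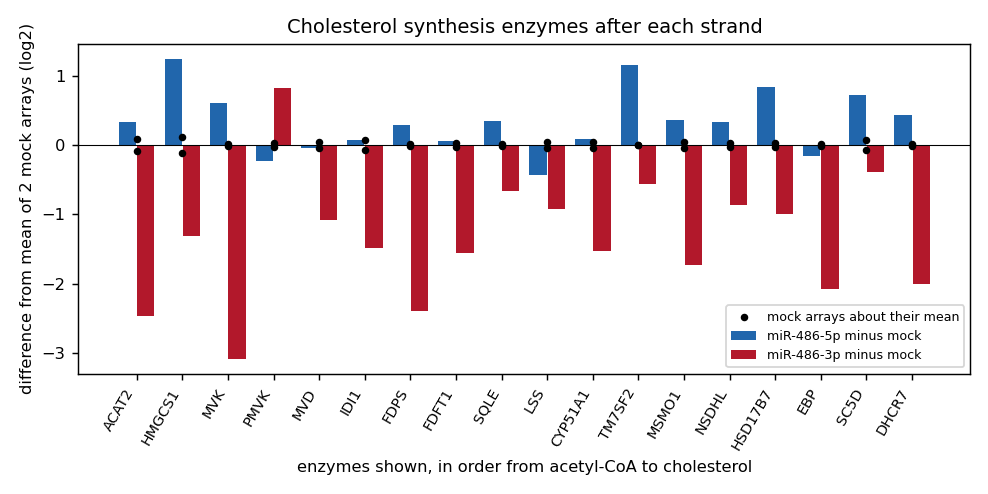
Difference of each strand array from the mock mean (log2, bars from 0) for 18 of the enzymes from acetyl-CoA to cholesterol, with the mock arrays about their mean as black points. The 3p bars lie below 0 for 17 enzymes and above it for PMVK (0.82), and the 5p bars reach 1.24 in HMGCS1 and 1.16 in TM7SF2.

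The genes around this pathway did not all follow it. Of 12 sterol uptake and regulation genes in use, 4 were below -1 (33.3%, against 13.0% of all genes) and 3 above 1 (25.0%, against 14.0%). The genes below included INSIG1, SREBF2 and STARD4. SREBF2, which encodes the main transcription factor of cholesterol synthesis, had levels of 2.70 after miR-486-5p, 1.44 after miR-486-3p and 2.67 and 2.68 in mock, so that the 5p array lay close to mock. INSIG1, which retains that factor in the endoplasmic reticulum, differed by -1.63, whereas its relative INSIG2 was 1.60 higher after miR-486-3p. Among 12 fatty acid synthesis genes 5 were below -1 (41.7%) and 0 above 1, with a median strand difference of -0.34. FASN, fatty acid synthase, stood 1.07 below mock after miR-486-5p and 3.60 below it after miR-486-3p, and no gene of this list was past 0.5 from mock in opposite directions.

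Genes past 1 or -1 after 1 strand and within 0.25 of mock after the other were far more numerous for miR-486-3p. With miR-486-3p alone, 1024 genes (6.18%) were above mock and 727 (4.39%) below it. The order of these counts turned with the scaling, to 603 and 1263 with median scaling and 375 and 416 with normexp. With miR-486-5p alone, 43 genes (0.260%) were above and 87 (0.525%) below. The 2 sets of miR-486-3p differed in level: the median mock level was -2.94 in the higher set, where 58.2% of genes were well above background on all 4 arrays, and 1.62 in the lower set, where 94.6% were. Over all genes these values were -0.05 and 87.1%. When the filter asked for all 4 arrays, the higher set held 634 genes and the lower set 706, so the order turned here too. In 413 of the 1024 genes some probe was not well above background on a strand array. The limit of detection was -4.6 on the 5p array and -4.72 and -4.73 on the mock arrays. Genes raised to it on all of these arrays were within 0.25 of mock by construction. The sets of miR-486-5p depended on the scaling, since with median scaling 6 of the 43 and 14 of the 87 genes stayed.

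Among the genes higher after miR-486-3p alone, BEST4, IL11, OVGP1 and SNORA38B were farthest apart. IL11, a cytokine of the interleukin-6 family, had levels of -2.81 after miR-486-5p, 1.76 after miR-486-3p and -2.76 in both mock arrays. The 5p array lay close to mock, and the signal after miR-486-3p was 23.7-fold higher. BEST4, a bestrophin chloride channel, differed by 4.97, OVGP1, an oviduct glycoprotein, by 4.48, and SNORA38B, an H/ACA small nucleolar RNA, by 4.45. limma's adjusted p was 0.0158 for BEST4, whose mock arrays were at -3.20 and -3.88, and 0.0126 for the others.

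Among the genes lower after miR-486-3p alone, ANKRD30BP2, UQCC2, ARHGDIA and S1PR1 were farthest apart. UQCC2, an assembly factor of respiratory complex III, had levels of 4.79 after miR-486-5p, 1.02 after miR-486-3p and 4.68 in both mock arrays, a 13.6-fold difference. ARHGDIA, an inhibitor of GDP dissociation from small GTPases, had levels of 2.97, -0.48, 2.96 and 3.08. S1PR1, a receptor of sphingosine-1-phosphate, differed by -3.40, and the pseudogene ANKRD30BP2 by -3.95. Of the 564 list genes in use, 47 were in this set (8.33%, against 4.39% of all genes), among them 5 of 20 enzymes of cholesterol synthesis, 5 of 31 proteasome subunits and 5 of 30 subunits of the respiratory chain. The wider respiratory chain and proteasome lists showed small shifts, with median strand differences of -0.20 and -0.30 and 2 of 30 (6.67%) and 4 of 31 (12.9%) members below -1, no more than the 13.0% of all genes. limma called 8 respiratory chain genes lower (26.7%, against 24.2% of all genes) and 3 higher (10%, against 23.6%). Of the proteasome genes it called 11 lower (35.5%) and 0 higher.

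Far fewer genes stood apart after miR-486-5p alone. EGR4, an early growth response transcription factor, had levels of 1.37 after miR-486-5p, -2.11 after miR-486-3p and -1.96 and -2.14 in mock, so that the 3p array lay within the mock arrays and the 5p array was 11.1-fold above the 3p array. ARL14, LINC00513 and WDR45 followed with strand differences of -1.82, -1.77 and -1.76. WDR45, an autophagy protein, had levels of 5.10, 3.34, 3.12 and 3.15. Of the genes lower after miR-486-5p alone, SPOCD1, LAG3, SP5 and TLX2 were farthest apart, with strand differences of 2.60, 2.58, 2.54 and 2.50. SP5, a transcription factor induced by Wnt signalling, had levels of -2.24, 0.29, 0.10 and 0.13. LAG3, an immune checkpoint receptor, had levels of -3.79, -1.21, -1.28 and -1.04. limma's adjusted p between the strands was 0.0126 to 0.0135 for these 8 genes, while 5p against mock was at 0.0525 for each.

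**Figure D4:**
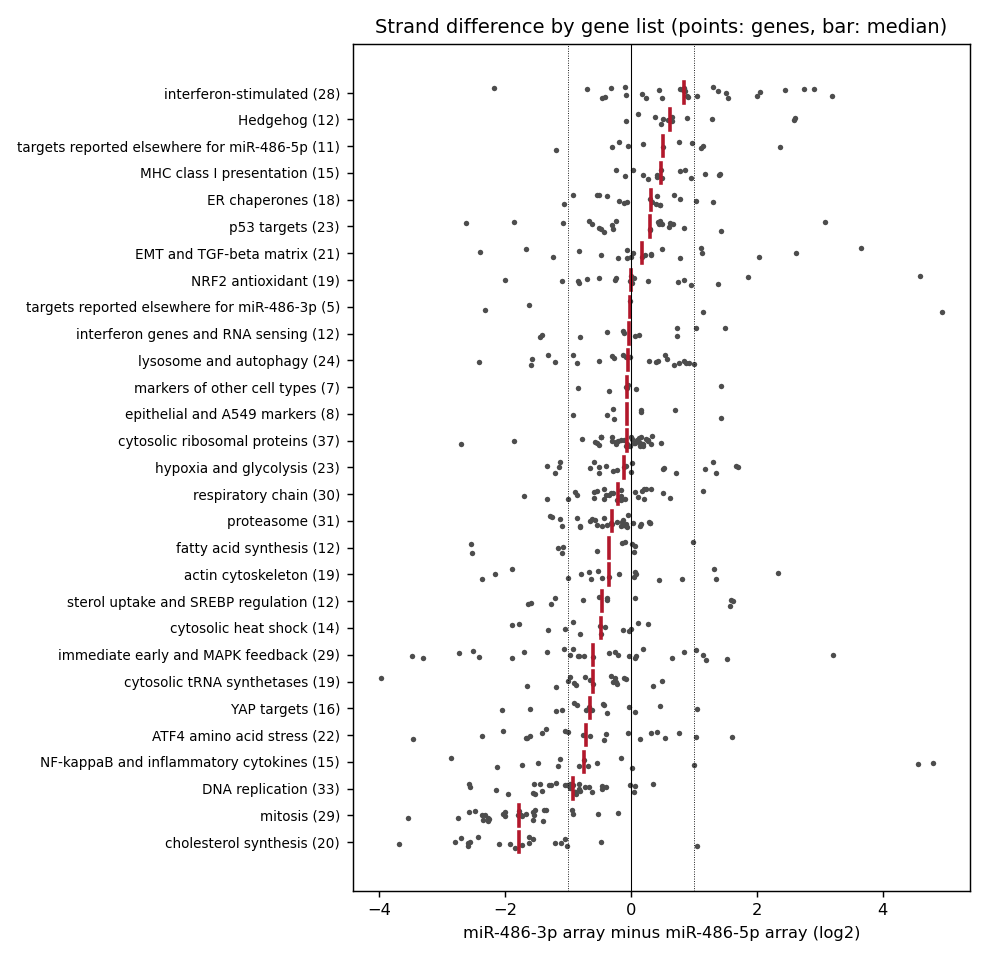
Difference between the miR-486-3p array and the miR-486-5p array (log2, horizontal axis) for the members in use of the 29 gene lists, 1 point per gene and a red bar at the median of each list; dotted lines stand at -1 and 1. The medians run from -1.78 for cholesterol synthesis and mitosis to 0.85 for interferon-stimulated genes.

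The replication and mitosis genes lay below mock on both strand arrays, but not equally far. All 29 mitosis genes in use were below mock after both strands, and all 29 were lower after miR-486-3p than after miR-486-5p. Of these, 25 were below -1 between the strands, against 13.0% of all genes. limma called 27 lower (93.1%, against 24.2% of all genes) and 0 higher. The median against mock was -0.94 for the 5p array and -2.86 for the 3p array. AURKB, the kinase of the chromosomal passenger complex, had levels of 1.13 after miR-486-5p, -2.41 after miR-486-3p and 1.77 and 1.82 in mock, an 11.6-fold difference between the strands. CDK1, the kinase that drives entry into mitosis, had levels of 2.45, 0.11, 3.33 and 3.23. MKI67, the proliferation antigen, had levels of 0.21, -1.82, 1.24 and 1.16. NEK2 and BUB3, at -0.52 and -0.20, had no call.

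The 33 DNA replication genes in use were also below mock after both strands, with 30 lower after miR-486-3p. The median was -1.0 for the 5p array and -1.98 for the 3p array, 14 were below -1 between the strands (42.4%), and limma called 26 lower (78.8%, against 24.2% of all genes) and 0 higher. RRM2, the small subunit of ribonucleotide reductase, had levels of 1.65, -0.92, 2.89 and 2.96. GINS4, a subunit of the GINS replication complex, had levels of 1.82, 0.28, 3.06 and 3.03, 2.91-fold lower after miR-486-3p than after miR-486-5p. GINS2 and GINS3 differed by -1.95 and -1.44, and GINS1 by -0.89. FEN1, CDC6 and RFC5 were among the members with no call between the strands, with differences from -0.01 to 0.35. The 72 histone genes, chosen after their values were seen, had 21 members below -1 (29.2%, against 13.0% of all genes) and 3 above 1 (4.17%, against 14.0%).

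Interferon-stimulated genes ran the other way. Of 28 in use, 11 were above 1 and 1 below -1 between the strands, against 14.0% and 13.0% of all genes. limma called 15 higher (53.6%, against 23.6% of all genes) and 2 lower (7.14%, against 24.2%). Only 23 of the 28 were well above background on all 4 arrays, and 4 had a probe not well above it on a strand array. The 11 include OASL and MX1, which passed the filter through the 3p array alone, so these counts are in part set by the filter. The median strand difference was 0.85, with medians against mock of 0.82 for the 3p array and 0.09 for the 5p array. ISG15, a ubiquitin-like modifier, had levels of 4.13 after miR-486-5p, 6.57 after miR-486-3p and 4.32 and 4.30 in mock. IFIT2, which binds foreign RNA, had levels of -2.49, 0.42, -2.0 and -2.10. In both genes the 3p array stood alone and the 5p array was slightly below mock. OASL, a relative of the oligoadenylate synthetases, was at least 9.12-fold higher after miR-486-3p, and the antiviral GTPase MX1 at least 6.73-fold, as neither was well above background on the 5p array. IFI35, which forms a complex with NMI, was the exception, at 1.73 after miR-486-5p, -0.44 after miR-486-3p and 0.71 and 0.65 in mock. USP18, which removes ISG15 from proteins, was also called lower after miR-486-3p, by 0.70. The genes that sense RNA and carry the interferon signal showed no common direction, with a median of -0.02 over 12 genes. IRF3, the transcription factor that induces interferon, was 1.44 lower after miR-486-3p and DHX58, a helicase that regulates RNA sensing, was 1.5 higher. Of 15 genes of MHC class I presentation 6 were called higher (40%, against 23.6% of all genes) and 0 lower. TAP1 and TAP2, the peptide transporter, stood at 1.18 and at least 2.63-fold.

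The immediate early genes held members at both ends. All 3 EGR genes in use were higher after miR-486-5p than after miR-486-3p. EGR1 had levels of 5.06 after miR-486-5p, 1.75 after miR-486-3p and 2.68 and 2.59 in mock, and EGR2 was at least 5.68-fold higher after miR-486-5p, since it was not well above background on the 3p array. FOSL1, a partner of JUN in AP-1, was also lower after miR-486-3p, by 2.41 on the log2 scale. Its relative FOS had levels of 1.79, 2.64, -0.44 and -0.46, above mock on both arrays and higher on the 3p array. NR4A3, an orphan nuclear receptor, had levels of -0.59, 2.62, -1.63 and -1.65, a 9.23-fold difference. MYC, the growth regulator, was 0.60 below mock after miR-486-5p and 3.33 below it after miR-486-3p. Over the 29 genes in use limma called 7 higher after miR-486-3p (24.1%, against 23.6% of all genes) and 15 lower (51.7%, against 24.2%). The feedback inhibitors of the MAP kinase pathway were divided too: DUSP5 and SPRY2 differed by -1.89 and -1.70 and DUSP1 by 1.53.

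Inflammatory and NF-kappaB genes also held members at both ends. CXCL2, a neutrophil chemokine, had levels of 1.81 after miR-486-5p, -1.05 after miR-486-3p and 1.55 and 1.49 in mock. CXCL1 differed by -2.13, RELB by -1.73 and NFKB2 by -1.47, all lower after miR-486-3p, whereas TNFAIP2 and IL11 were the list members farthest in the other direction. Of 15 genes in use limma called 3 higher (20%, against 23.6% of all genes) and 9 lower (60%, against 24.2%). The median of -0.75 became 0.02 when no filter was set on dim probes.

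Targets of the amino acid response were mostly lower after miR-486-3p than after miR-486-5p. Of 22 targets of ATF4, the transcription factor of amino acid stress, 9 were below -1 (40.9%, against 13.0% of all genes) and 2 above 1, and limma called 12 lower (54.5%, against 24.2%) and 4 higher. SLC7A5, a transporter of large neutral amino acids, had levels of 3.89 after miR-486-5p, 0.43 after miR-486-3p and 4.32 and 4.38 in mock, an 11.0-fold difference. ASNS, asparagine synthetase, differed by -1.60 and TRIB3, a pseudokinase, by -2.37. DDIT4, an inhibitor of mTORC1, was the extreme in the other direction, at 0.94, 2.55, 3.99 and 4.01, which placed miR-486-5p lowest. ATF4 itself differed by 0.32 with no call. Among 19 cytosolic tRNA synthetases limma called 9 lower on the 3p array (47.4%) and 0 higher, but 3 were below -1 (15.8%), and AARS1, the alanine enzyme, stood apart from the rest with levels of 2.25, -1.72, 1.89 and 2.0.

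In the remaining lists the shifts were smaller or mixed, and the shares called are to be read against the 23.6% of all genes called higher and 24.2% called lower. limma called 7 of the 12 Hedgehog genes higher on the 3p array and 0 lower, but 3 of those 7 were not well above background on the 5p array. Among the 8 genes without such a bound 4 were called higher and 0 lower, with a median of 0.53. GLI1, the transcription factor and target of the pathway, had levels of -3.32 after miR-486-5p, -0.73 after miR-486-3p and 0.79 and 0.47 in mock, below mock after both strands and lowest after miR-486-5p. Of 23 p53 targets limma called 6 higher (26.1%) and 4 lower (17.4%), near those shares, from TIGAR, a regulator of glycolysis, at 3.08 to SESN2, a stress-induced inhibitor of mTORC1, at -2.61. NRF2 targets had a median of 0.00 over 19 genes. HMOX1, heme oxygenase, had levels of 5.44, 3.44, 4.16 and 4.10 and was on opposite sides of mock, whereas NQO1, a quinone reductase, was 1.39 higher after miR-486-3p. YAP targets had 10 of 16 genes called lower (62.5%) and 1 higher, led by CCN2 at -2.05. Of 24 lysosome and autophagy genes 7 were called in each direction (29.2%). Of 14 heat shock genes 7 were called lower (50%) and 0 higher, with HSPB1 at -1.88. ER chaperones had a median of 0.32 over 18 genes, 4 called higher (22.2%) and 3 lower (16.7%). Glycolysis and hypoxia genes had 6 called higher (26.1%) and 7 lower (30.4%) among 23 genes, and the EMT and TGF-beta matrix list 6 (28.6%) and 4 (19%) among 21. The actin cytoskeleton had 4 called higher (21.1%) and 7 lower (36.8%) among 19. The cytosolic ribosomal proteins lay close together, with a median of -0.06 over 37 genes, apart from RPLP0 and RPLP2 of the ribosomal stalk at -2.70 and -1.86.

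Genes named elsewhere as targets of either strand were read in the same way. Of 11 genes named for miR-486-5p, limma called 5 higher after miR-486-3p (45.5%, against 23.6% of all genes) and 1 lower (9.09%, against 24.2%). Their median strand difference was 0.51, with medians against mock of -0.24 for the 5p array and 0.62 for the 3p array. The kinase PIM1 had levels of 0.37 after miR-486-5p, 2.73 after miR-486-3p and 2.16 and 2.05 in mock. FOXO1 and IGF1R showed no call, at -0.04 and -0.18. Of 5 genes named for miR-486-3p, EIF5A, a translation factor, had levels of 4.72, 2.41, 4.66 and 4.70, and BRD9, a chromatin reader, differed by -1.62. XRCC1, a DNA repair scaffold, was at -0.01 between the strands and below mock after both. CYP1A1 and CRABP2, a carrier of retinoic acid, were higher after miR-486-3p, by 4.95 and 1.14. The 2 probes of CRABP2 gave 0.10 and 2.17.

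Small Cajal body and nucleolar RNA genes were grouped after their values were seen, and 2 of the 3 kinds stood apart after miR-486-3p. H/ACA RNAs guide pseudouridylation of ribosomal RNA, C/D RNAs guide its methylation, and Cajal body RNAs guide the modification of spliceosomal RNAs. Of 21 Cajal body RNA genes 17 were above 1 between the strands (81.0%, against 14.0% of all genes) and 0 below -1, with a median of 2.44. SCARNA11 had levels of 1.22 after miR-486-5p, 5.15 after miR-486-3p and 0.75 and 0.60 in mock. Of 94 H/ACA RNA genes 47 were above 1 and 0 below -1, with a median of 1.01, and limma called 69 higher and 2 lower. SNORA48 had levels of 2.38, 6.75, 2.30 and 2.13, a 20.6-fold difference. The C/D RNA genes lay closer to all genes. Of 132 in use 25 were above 1 (18.9%, against 14.0% of all genes) and 4 below -1. Of the 117 on all 4 arrays 21 were above 1 (17.9%), with a median of 0.37. With probes well above background on all 4 arrays, 1779 of all 14960 genes were above 1. Among the 132, limma called 47 higher and 9 lower, against 23.6% and 24.2% of all genes. With median scaling 11 of the 132 were above 1, and with normexp 5, beside 1552 and 716 of all 16561 genes. The medians after miR-486-5p against mock were 0.22, -0.05 and 0.01 for the 3 kinds. Most of these RNAs are cut from introns, and an array probe cannot tell the mature RNA from an unspliced host transcript.

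**Figure D5:**
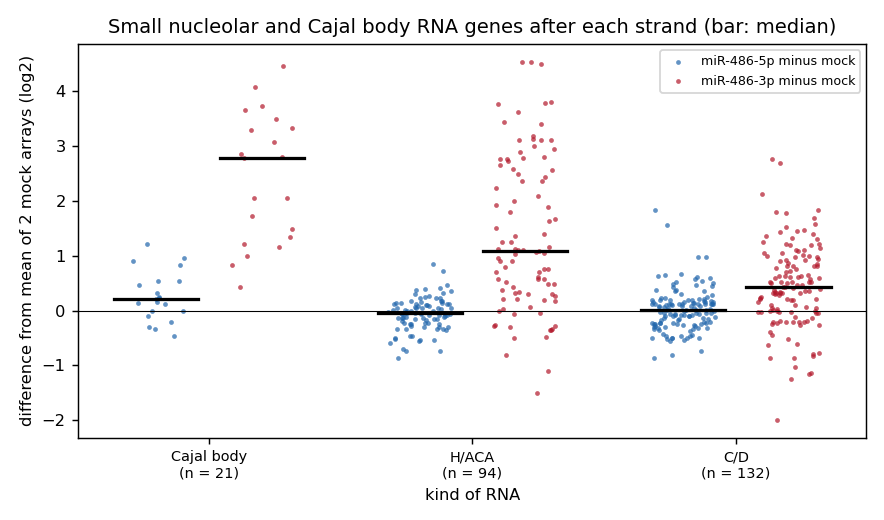
Difference from the mock mean (log2, vertical axis) after miR-486-5p (blue) and miR-486-3p (red) for 21 Cajal body, 94 H/ACA and 132 C/D RNA genes, with a bar at each median. The red medians are 2.78, 1.1 and 0.43 and the blue medians 0.22, -0.05 and 0.01.

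Markers of the cell line were checked on the same scale. Of 9 epithelial and A549 markers 8 were in use, and limma called 1 higher (12.5%, against 23.6% of all genes) and 3 lower (37.5%, against 24.2%) between the strands. The lower calls included EPCAM and ALDH1A1, each with a probe not well above background on the 3p array. Their measured differences, which limma used, were -2.34 and -1.15, and with values raised to the limit of detection they were -0.28 and -0.27. KRT7, a keratin of simple epithelia, had levels of 4.18 after miR-486-5p, 3.82 after miR-486-3p and 4.03 and 4.04 in mock. Of 10 markers of blood, vessel, stroma, muscle and nerve 7 were in use, with levels below those of KRT7 on every array. CD14, a monocyte marker, was 1.44 higher after miR-486-3p, and its part in the other results was not tested. GAPDH, often taken as constant, had levels of 8.31, 8.91, 8.54 and 8.56, so that the 3p array was 0.60 above the 5p array (SE 0.100, limma adjusted p = 0.0358); with median scaling this difference was 0.30 and was not called.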

How the data were processed

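Gene expression was measured on 4 single-colour Agilent arrays of A549 cells (1 miR-486-5p, 1 miR-486-3p and 2 mock), grouped by their labels and held on 1 slide with 1 scan. The intensity values deposited by the authors are background-corrected spot signals from Agilent Feature Extraction, per the file headers. The authors also deposited a log2 table of the same arrays with no stated method. Its values lay at r = 0.99962 to 0.99994 with log2 of the scanner signal and had a median of 2.76 on each array, and it was used as an alternative.

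Control spots and 50 to 72 outlier spots per array were left out, and no spot was saturated. Each array was scaled to its 75th percentile (92.4 to 114 signal units), probes were averaged, and 31104 of 33080 probes with a RefSeq accession were matched to 22439 genes. The precision rests on the number of arrays, and depth does not apply. Differences used values raised to the limit of detection where a probe was not well above background, and such folds are given as "at least". Fold counts used a limit of 1 on the log2 scale. limma 3.58.1 (R 4.3.3) fitted the 3 groups on all 4 arrays, using measured values that were not raised to the limit of detection. The fit had 1 residual degree of freedom from the mock arrays, and Benjamini-Hochberg adjustment at 0.05. The p-values for the strands therefore assume that each single strand array varies as the mock arrays do. Tested on simulated data, the fit recovered the fold sizes, and it made calls where a large share of features was changed but none where few were. The simulated strand arrays were given the spread of the mock arrays, so the simulation could not test that assumption.

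Genes in opposite directions were past 0.5 and -0.5 from mock. Genes with 1 strand alone were past 1 after it and within 0.25 after the other. The 6 genes farthest apart were named per opposite direction and 4 per set with 1 strand alone, among genes well above background on all 4 arrays, with the ends of each of 29 lists, GAPDH and list members described by role. The genes compared, the lists and the motifs were chosen with earlier results of these data known. Alternatives were median scaling, quantile normalization, normexp (offset 50), the authors' log2 values, the filter on dim probes, the brightest probe per gene, other limits, other limma settings and single mock arrays. Some list members count in the totals but are not reported here by name.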

Additional observations from a re-analysis of the deposited data

How the results depend on the processing

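With 1 array per strand there is no replicate check of either strand, and signal near background gives only bounds. No paired analysis was possible because each strand had 1 array. limma could not be fitted without a mock array, since no residual degree of freedom is left. A slide block was not run, since there was 1 slide, and normexp used the median spot signal. Of the counts recomputed under the alternatives 102 stayed within 1.5 times their value and 29 did not. Of the strand differences of named genes and list members, 558 kept direction and call, 14 gained a call, 13 lost it and 1 reversed. The cause of the changes below was not tested.

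With median scaling, which moved the median strand difference by -0.30, 3313 genes were below -1, 603 were higher and 1263 lower after miR-486-3p alone, and 65 were higher after miR-486-5p alone. With normexp 716 genes were above 1 and 1052 below -1, 99 and 122 were in opposite directions (first higher, then lower after miR-486-3p), 375 and 416 were higher and lower after miR-486-3p alone, and 9 and 25 after miR-486-5p alone. The C/D RNA genes above 1 numbered 11 and 5 with these settings, which were chosen for the small RNAs after seeing the data. All genes above 1 numbered 1552 and 716 with them. With probes well above background on all 4 arrays, 634 genes were higher and 706 lower after miR-486-3p alone. With no filter limma called 2341 genes higher and 2342 lower, 106 were higher after miR-486-5p alone, and the NF-kappaB median turned to 0.02. With the brightest probe UQCRB turned to -0.30 between the strands and -0.06 against mock after miR-486-3p. A limit of 0.5 gave 4742 above and 4372 below, and a limit of 2 gave 615 and 372. A limit of 1 gave 77 and 32 genes in opposite directions. A limit of 0.5 for the other strand gave 1593 and 1297 genes higher and lower after miR-486-3p alone, and 114 and 176 after miR-486-5p alone. With mock 1 for miR-486-5p and mock 2 for miR-486-3p, 76 genes were higher after miR-486-5p alone.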
